A study of Mus musculus with 8 samples.

Results

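The transcriptome described here is that of the wild-type mouse testis at postnatal day 8. It rests on 3 RNA sequencing libraries from whole testes of C57BL/6 mice that carried an intact Dmrt6 gene. The 3 libraries are the wild-type ones among the 6 RNA libraries in the authors' expression table, in a series of 8 samples, and they were chosen by their labels alone. All 22744 genes of that table were described. Values of the animals lacking Dmrt6 entered only checks of the whole table, such as the lowest read total over its 6 RNA libraries. The labels name no treatment, no transgene and no further allele in these mice, and they call the 3 libraries biological replicates without naming animals or litters. A spread between libraries is therefore a spread between these samples. RNA was total RNA extracted from whole organs with Trizol, so every value is a mixture over cell types. Fewer cells of a type and less RNA per cell cannot be told apart in such samples.

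The tubules of the mouse testis at this age hold Sertoli cells, the somatic cells that nurse the germ cells, together with spermatogonia. The leading germ cells of the first wave of spermatogenesis are differentiating and enter meiosis around this time, under the control of retinoic acid. Later germ cells have yet to form. Around the tubules lie contractile peritubular cells, and between them lie steroid-producing Leydig cells, fibroblasts, vessels and macrophages.

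The table held 23.8, 29.0 and 27.5 M reads in replicates 1, 2 and 3, an order kept for all values below. Levels are in CPM, the read count of a gene scaled to the reads of its library, recovered from the deposited log2 values. A count of 0 allows up to 3 reads, which is 0.126, 0.103 and 0.109 CPM in the 3 libraries. That limit and any interval cover counting error only. CPM is not divided by transcript length, so a rank or a share of CPM is one of reads and not of molecules. Replicate 3 stood apart from the others in a way that touches several results. It had few reads of many genes known for secretion by the epididymis, which replicates 1 and 2 both held, and of other genes too. Those values are given below beside the genes concerned.

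Reads were spread over many genes. A mean of at least 1 CPM was reached by 16729 genes, 73.6% of those listed, and these held 99.8% of the reads. By library the number at 1 CPM or more was 16843, 16610 and 16618. The upper part of the range held most reads: 2745 genes at 100 CPM or more took 61.6% of them, while 29 genes at 1000 CPM or more took 4.24%. The top 10 genes by reads took 2.07% ± 0.0904, the top 100 took 9.74% ± 0.254 and the top 1000 took 37.8% ± 0.618 (SD, n = 3 each). Adding genes from the top down, 50% of the reads were reached with 1747 genes, 90% with 7690 and 99% with 13391. No gene symbol of the mitochondrial genome is in the table. The median gene was at 3.46 on the log2 CPM scale, and the median of genes at 1 CPM or more was at 4.73.

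**Figure D1:**
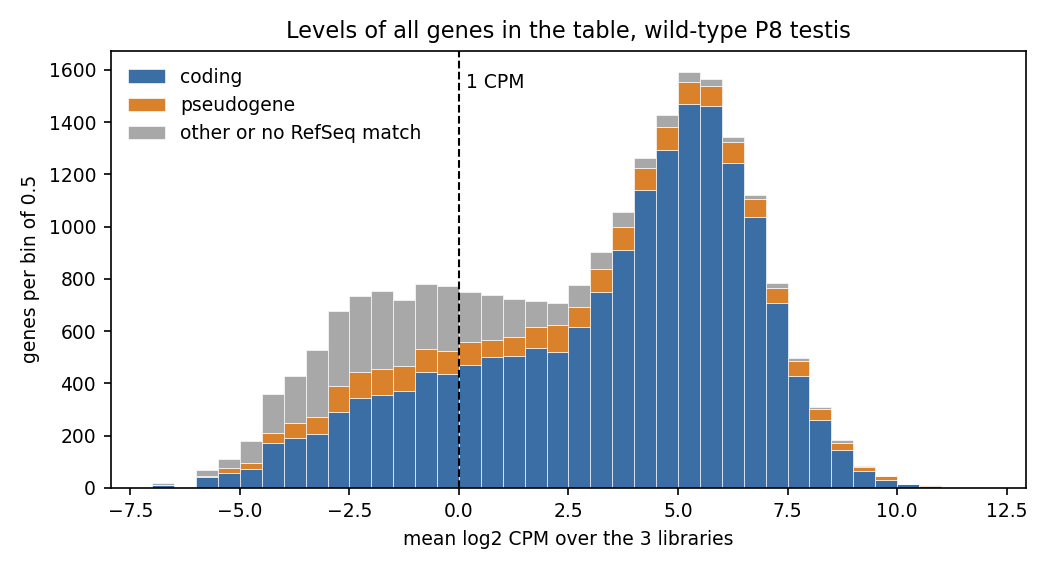
The horizontal axis gives the mean log2 CPM over the 3 libraries and the vertical axis the number of genes per bin of 0.5, stacked by the kind of gene in RefSeq; the dashed line marks 0, close to 1 CPM. The fullest bin, from 5 to 5.5, holds 1594 genes, 1471 of them coding, and genes with no RefSeq match or of other kinds lie mostly to the left of the line.

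The most abundant genes by reads included those of protein turnover, translation and folding, beside matrix and Sertoli cell genes. Ubb, which encodes polyubiquitin, led with 3434, 3454 and 3822 CPM (ENSMUSG00000019505, chromosome 11, 62364673 to 62366715, plus strand, mm9). Eef1a1, the factor that brings transfer RNA to the ribosome, had 3632, 3107 and 3381 CPM. The order of these 2 genes was not the same in every library, since Eef1a1 was the higher of the pair in replicate 1. Hspa8, a constitutive chaperone of the HSP70 family, had 1649.9, 1877 and 1942 CPM, and Hsp90ab1, of the HSP90 family, had 1676, 1459.9 and 1356 CPM. Col3a1, a fibrillar collagen of fibroblasts, stood at 1945, 1658 and 1802 CPM. Clu, a chaperone secreted in bulk by Sertoli cells, reached 1636, 1584 and 1824 CPM. Sparc, a matrix glycoprotein, had 1731, 1468 and 1506 CPM. These 3 genes are products of somatic cells, and the highest gene of the germ cell list, Dazl, came below them in every library. Nedd4, a ubiquitin ligase, had 1588, 1492 and 1522 CPM, and the tubulin gene Tuba1b had 1363, 1449 and 1615 CPM. Maged1 was the highest X-linked gene with 1287, 1382 and 1469 CPM. RNA-binding proteins were also among the leading genes. Hnrnpa2b1, a splicing regulator, had 1243, 1241 and 1319 CPM, and the RNA helicase gene Ddx5 had 1198, 1177 and 1183 CPM. The values of Hspa8, Col3a1 and Clu overlapped one another, so their order is not fixed by these libraries.

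Several of the leading symbols are not ordinary genes. Gm10925, which RefSeq calls a pseudogene, was the third by reads with 2152, 1847 and 2009 CPM, and Gm13456, also a pseudogene, had 1769, 1517 and 1640.0 CPM. Gm1821, with no RefSeq match, had 1499.5, 1510.4 and 1643 CPM. In all, 2144 listed genes matched RefSeq pseudogenes, and they took 9.98% ± 0.326 of the reads (SD, n = 3), against 86.8% ± 0.451 for 17098 coding genes and 0.442% ± 0.0281 for 1097 long noncoding RNA genes. Reads of a pseudogene and of its parent can be near-identical, and how such reads were assigned is not given in the sources used here, so the levels of these genes and of their parents are uncertain. Rpl3-ps1, a copy of a ribosomal protein gene on the X chromosome, had 1072, 930.1 and 1057 CPM.

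Genes that other organs use for sensing, hair, defence or lactation were mostly outside the table. The authors' table lists only genes with some reads: the lowest total over its 6 RNA libraries was 11 recovered reads. Of 21896 coding genes in RefSeq, 16941 were listed and 4955, or 22.6%, were not. Odorant receptors, the receptors of the sense of smell, were listed for 34 of 1110 genes, and 4 of those 34 reached 1 CPM. Olfr1033 was the highest with 6.08, 4.24 and 9.21 CPM. Type 1 vomeronasal receptors were listed for 11 of 231 genes and type 2 for 26 of 124. Bitter taste receptors came to 1 of 35, keratin-associated proteins of hair to 1 of 56 and prolactin-like hormones to 2 of 25. None of 29 alpha-defensins, 22 major urinary proteins or 18 type I interferon genes was listed. Of the listed genes, only 17 had no read in any of the 3 libraries, among them Il12b, the keratin gene Krt4 and the skin gene Skint5. That number rests on how many libraries are counted: it was 71 without replicate 1, 75 without replicate 2 and 94 without replicate 3.

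Families used by every cell were mostly listed by contrast, with 38 of 40 proteasome subunit genes, 76 of 78 mitochondrial ribosomal protein genes and 42 of 49 subunits of respiratory complex I in RefSeq. The symbol pattern of ribosomal proteins took in 88 listed genes, more than the 82 coding genes it found in RefSeq, so the sets are not the same. All 88 were at 1 CPM or more and together took 2.60% of the reads, and Rpl4 was the highest with 1098, 967 and 1033 CPM. All 38 listed proteasome subunit genes and all 42 listed subunits of respiratory complex I passed 1 CPM, as did 75 of 76 mitochondrial ribosomal protein genes. Zinc finger genes named Zfp passed in 356 of 366 cases, with a median of 20.6 CPM. Hox genes, which pattern the body axis, were listed for 38 of 39 genes, and 20 of them reached 1 CPM; Hoxd8 was the highest at 32.4, 28.7 and 29.8 CPM. Of 29 listed Rhox homeobox genes, an X-linked cluster of the reproductive tract, 19 reached 1 CPM, led by the Sertoli cell gene Rhox8 at 191, 199 and 232 CPM. Beta-defensins were listed for 23 of 42 genes and 8 reached 1 CPM. Defb19 was the highest of them, with 69.2, 89 and 124 CPM.

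Promoter windows from RefSeq showed how the level classes differ in sequence. Each window covers 250 bases before to 50 bases after a start in GRCm38.p6, 300 bases in all. Of 17491 coding genes with a window, 13506 matched a listed gene by Entrez ID or symbol; the first start listed was used for the 2761 genes with several. The windows of 6 genes are shown, to set a steady abundant gene (Ptma), a germ cell gene (Ddx4), a Leydig cell gene (Hsd3b1) and a spermatid gene (Prm1) beside 2 genes of the epididymis (Crisp1 and Serpina1f). The sequences run 5′ to 3′ on the gene's strand, and capitals mark CG pairs, the sites of DNA methylation.
Ptma: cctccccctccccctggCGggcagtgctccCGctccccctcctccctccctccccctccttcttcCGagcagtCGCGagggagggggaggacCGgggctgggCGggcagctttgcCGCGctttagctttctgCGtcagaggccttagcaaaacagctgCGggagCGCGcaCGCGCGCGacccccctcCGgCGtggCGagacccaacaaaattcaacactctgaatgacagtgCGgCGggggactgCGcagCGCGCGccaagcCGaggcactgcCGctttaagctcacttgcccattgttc
Ddx4: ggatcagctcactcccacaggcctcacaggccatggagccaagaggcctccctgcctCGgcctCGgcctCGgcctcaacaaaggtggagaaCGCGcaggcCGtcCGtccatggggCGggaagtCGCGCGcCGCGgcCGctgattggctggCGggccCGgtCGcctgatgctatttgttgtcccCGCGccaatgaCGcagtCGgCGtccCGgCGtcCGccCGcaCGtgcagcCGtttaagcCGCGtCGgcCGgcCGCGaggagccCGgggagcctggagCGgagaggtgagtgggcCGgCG
Hsd3b1: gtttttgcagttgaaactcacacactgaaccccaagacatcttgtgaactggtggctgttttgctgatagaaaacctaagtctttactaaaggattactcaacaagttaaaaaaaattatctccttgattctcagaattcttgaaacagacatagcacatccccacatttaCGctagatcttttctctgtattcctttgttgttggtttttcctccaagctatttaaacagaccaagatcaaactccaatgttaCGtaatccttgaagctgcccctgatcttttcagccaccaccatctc
Prm1: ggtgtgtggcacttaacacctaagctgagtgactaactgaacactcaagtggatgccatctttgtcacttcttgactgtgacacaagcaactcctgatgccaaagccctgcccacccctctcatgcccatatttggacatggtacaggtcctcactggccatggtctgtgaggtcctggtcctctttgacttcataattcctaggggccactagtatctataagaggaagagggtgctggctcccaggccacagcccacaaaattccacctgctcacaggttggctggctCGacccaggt
Crisp1: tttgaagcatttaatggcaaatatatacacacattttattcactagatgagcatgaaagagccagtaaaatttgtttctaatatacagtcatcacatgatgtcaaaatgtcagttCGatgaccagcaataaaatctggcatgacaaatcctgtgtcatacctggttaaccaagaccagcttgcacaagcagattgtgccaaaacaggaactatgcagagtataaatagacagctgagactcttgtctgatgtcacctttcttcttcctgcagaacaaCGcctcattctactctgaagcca
Serpina1f: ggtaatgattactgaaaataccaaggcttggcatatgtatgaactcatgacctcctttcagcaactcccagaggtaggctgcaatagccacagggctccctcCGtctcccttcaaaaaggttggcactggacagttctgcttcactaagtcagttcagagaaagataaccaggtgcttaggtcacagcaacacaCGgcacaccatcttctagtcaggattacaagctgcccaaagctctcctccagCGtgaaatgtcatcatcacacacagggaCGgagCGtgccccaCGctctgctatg

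The Ptma window (chr1:86526307-86526606, plus strand) holds 28 CG pairs and the Ddx4 window (chr13:112652261-112652560, minus strand) holds 38. Ptma, which encodes the abundant nuclear protein prothymosin alpha, had 1065, 1066 and 1068 CPM. Ddx4, the germ cell RNA helicase also called VASA, had 225, 266 and 254 CPM. Hsd3b1 (chr3:98859745-98860044, minus strand) has 2 CG pairs and yet stood at 289, 303 and 376 CPM. Prm1 (chr16:10796774-10797073, minus strand) has 1 pair, and its protamine replaces histones in spermatids; it had 3, 4 and 2 reads. Crisp1 (chr17:40319158-40319457, minus strand) has 2 pairs and Serpina1f (chr12:103695480-103695779, minus strand) has 6. Of the 6 windows shown, that of Crisp1 alone has the letters TATAAA.

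CG pairs were more frequent the higher the class of level. The median window had 2 CG pairs for the 3985 coding genes not listed, 5 for 2229 genes under 1 CPM, 13 for 2795 genes at 1 to 10 CPM, 21 for 6567 genes at 10 to 100 CPM and 24 for 1915 genes at 100 CPM or more. The median over all 17491 windows was 13. GC content was higher in each class than in the one below, with a median of 43.7% in genes not listed and 62.3% in genes at 100 CPM or more. The letters TATAAA, searched on both strands, were in 29.8% of windows of genes not listed and in 6.48% of those at 100 CPM or more, against 13.3% of all windows. GGGCGG, which itself holds a CG pair, was in 9.23% and 71.2% of windows of these classes, against 46.3% of all windows. CCAAT was in 40.7% and 40.8% of them, against 39.0% of all. These are shares of windows with the letters, not of sites bound by a factor.

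**Figure D2:**
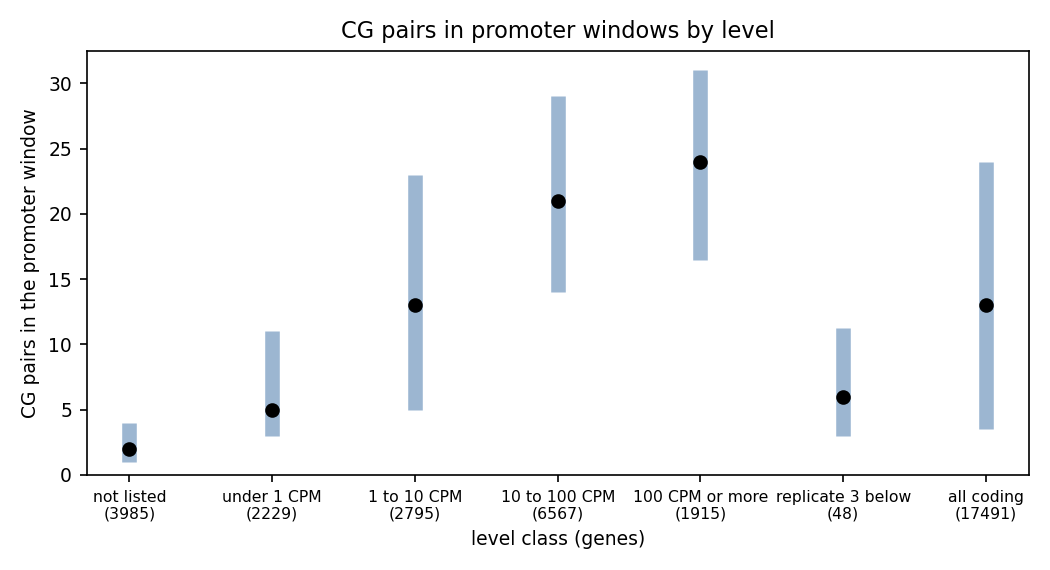
The vertical axis gives CG pairs per window of 300 bases, and the horizontal axis the class by mean CPM, with the number of genes below each name; points are medians and bars run from the lower to the upper quartile. Medians climb from 2 in genes not listed to 24 at 100 CPM or more, and genes in which replicate 3 lay at least 4 times below both other libraries have a median of 6.

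Lists of marker genes were used to describe the cell types. Of 312 members in 23 cell type lists, 289 were listed and 232 had a mean of at least 1 CPM. Over all listed genes that share was 73.6%, with a median of 3.46 on the log2 CPM scale. A median above that was found for 11 of the 23 lists.

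**Figure D3:**
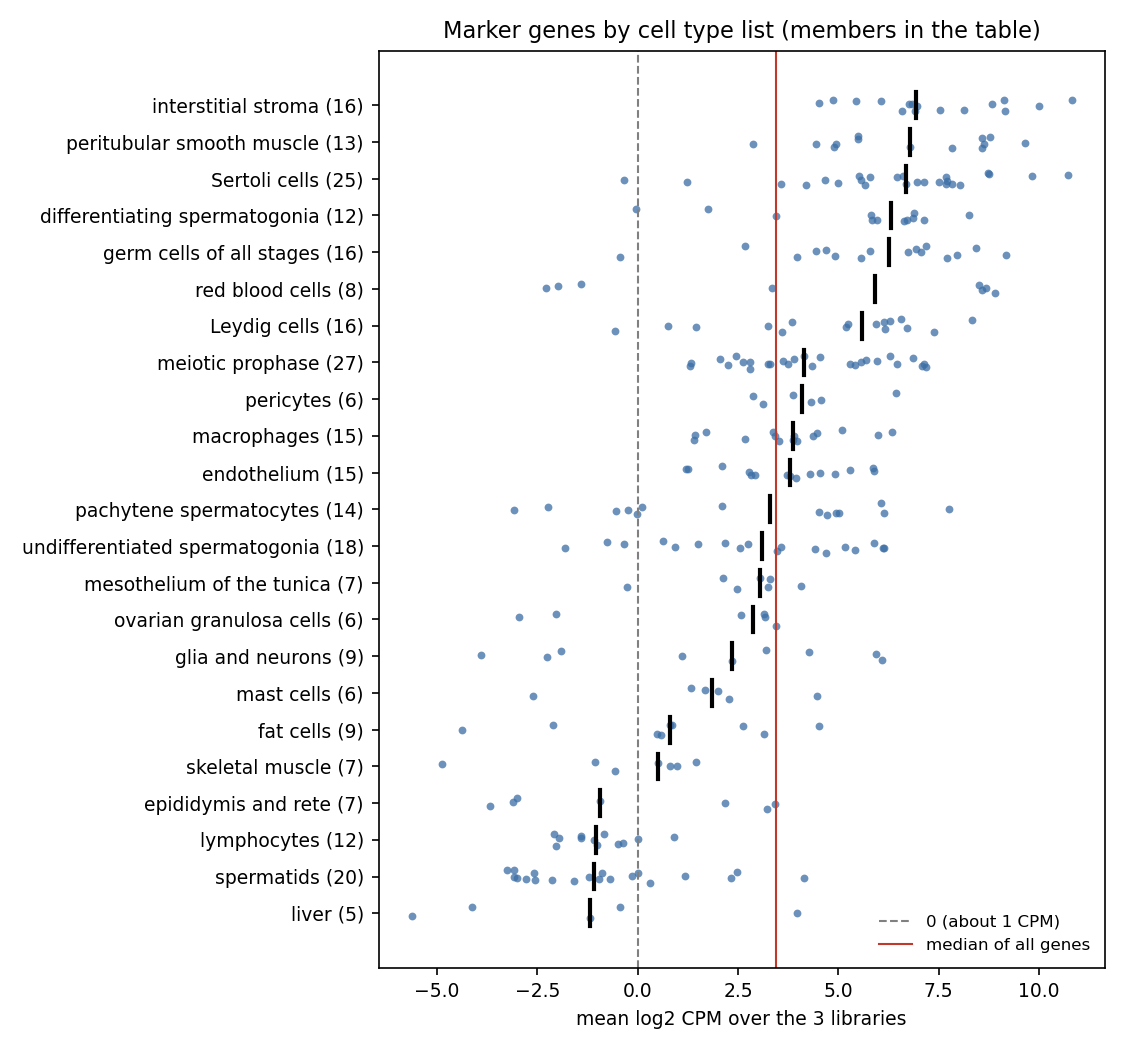
Each point is 1 listed marker gene, placed by its mean log2 CPM over the 3 libraries on the horizontal axis, with 1 row per cell type list and the number of listed members in brackets; black bars are list medians, the dashed line is at 0 and the red line at the median of all genes, 3.46. Interstitial stroma, peritubular and Sertoli cells have the highest medians (6.92, 6.78 and 6.67), and liver, spermatids and lymphocytes the lowest (-1.19, -1.08 and -1.05).

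Germ cell genes were well represented. Of 16 genes used by germ cells of all stages, 15 reached 1 CPM and 8 reached 100 CPM, with a list median of 6.26 on the log2 CPM scale. Dazl, an RNA-binding protein needed for germ cell development, was the highest with 563, 609 and 564 CPM. Tex15, a germ cell gene of transposon silencing, had 327, 372 and 329 CPM. Ddx4, whose promoter with many CG pairs is shown above, was the third. The piRNA factors Piwil2 and Mael stood at 198, 238 and 195 and 136, 156 and 146 CPM. Nanos3 was low at 5.75, 6.43 and 7.18 CPM, and Tdrd6, whose protein belongs to later germ cells, was under 1 CPM on average at 1.09, 0.615 and 0.583 CPM.

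In the list of undifferentiated spermatogonia, which hold the stem cells, 15 of 18 members reached 1 CPM, none reached 100 CPM and the median was 3.10 on the log2 scale. Taf4b, a subunit of the general transcription machinery, had 63.2, 77.8 and 72.4 CPM. Lin28a, an RNA-binding protein, had 66.8, 79.6 and 63.2 CPM. Zbtb16, the repressor PLZF, stood at 40.7, 47 and 41.2 CPM, and Gfra1, the receptor subunit for the Sertoli cell factor GDNF, at 30.2, 23.7 and 23.8 CPM. Markers of the more restricted stem cell fraction were low. Id4 had 9.53, 6.15 and 5.17 CPM, Nanos2 had 1.55, 1.71 and 1.38 CPM and Pax7 had 0.168, 0.342 and 0.364 CPM, the last under 1 CPM in every library. A range of at least 2 times between the highest and the lowest library was seen for 2 of the 15 members at 1 CPM or more, against 4.48% of all 16729 genes at that level. Cdh1, which encodes E-cadherin and is also an epithelial gene, was one of them with 17.2, 10.1 and 7.65 CPM.

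Genes of differentiating spermatogonia were higher. All 12 reached 1 CPM and 6 reached 100 CPM, with a median of 6.30 on the log2 scale. Ccnd2, a cyclin that appears as spermatogonia leave the undifferentiated state, had 357, 292 and 270.4 CPM. Kit, the receptor that marks differentiation, had 114, 128 and 105 CPM. Stra8, the retinoic acid target that precedes meiosis, had 86.6, 115 and 99.6 CPM. Sohlh1 and Sohlh2, transcription factors of differentiation, stood at 55, 62.8 and 51.6 and at 62.6, 61.4 and 63.9 CPM. Dmrt1, which holds spermatogonia back from meiosis, was at 150.1, 163 and 109.7 CPM, and its relative Dmrtb1, the Dmrt6 gene of the study, was far lower at 8.14, 17.4 and 9.25 CPM, with replicate 2 above the other libraries. Dnmt3l, a cofactor of DNA methylation used mainly before birth, was the lowest at 0.755, 1.91 and 0.619 CPM.

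Meiotic genes were present down to those of recombination. All 27 listed members of the prophase list reached 1 CPM, and its median was 4.15 on the log2 scale. The cohesin genes Stag3 and Smc1b had 134, 167 and 137 and 126, 153 and 142 CPM. Sycp1, of the transverse filaments of the synaptonemal complex, had 124, 159.6 and 127 CPM, while Sycp3, of the complex's lateral element, had 38, 41.7 and 37.2 CPM. Recombination enzymes were lower. The strand exchange gene Dmc1 had 25.3, 25.3 and 19.9 CPM and Spo11, which makes the DNA breaks, had 4.24, 4.14 and 4.12 CPM. Rnf212, a crossover factor, was the lowest of the list at 2.18, 2.77 and 2.48 CPM. Replicate 2 was the highest library for 19 of these 27 genes and replicate 1 the lowest for 19, a small shift: the summed CPM of the list was 1034, 1199 and 1097. How often each library was highest or lowest over all genes is not given, here or for the lists below.

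Spermatid genes were near the bottom of the range, and genes tied to pachytene spermatocytes were mixed. Of 14 listed genes tied to pachytene spermatocytes, 9 reached 1 CPM, with a list median of 3.31 on the log2 scale, close to that of all genes, but the high ones, such as Taf7l at 209, 226 and 214 CPM and the mitotic kinase gene Nek2 at 71.4, 70.7 and 69.6 CPM, are also used by earlier cells. The germ cell variants of glycolysis were barely present, with 0.168, 0.342 and 0.146 CPM for Pgk2 and 0.587, 0.957 and 1.02 CPM for Ldhc. Of 28 spermatid genes, 8 were not listed, among them Prm2, Acrv1 and Smcp, and 6 reached 1 CPM. Crem, a transcription factor with forms in many cells, was the highest at 18.1, 20.3 and 15.2 CPM, followed by Gapdhs at 5.54, 5.57 and 5.57 CPM and Zpbp at 4.66, 5.2 and 5.24 CPM. Prm1 had 0.126, 0.137 and 0.0728 CPM, close to the limit that a count of 0 allows. The acrosomal enzyme gene Acr had 0.126, 0.171 and 0.182 CPM and the transition protein gene Tnp2 had 0.0839, 0.137 and 0.109 CPM. The median of the 20 listed spermatid genes was -1.08, with a summed CPM of 37.4, 40.7 and 35.5, against 1963, 2277 and 2043 for germ cells of all stages.

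Sertoli cell genes were among the highest of any list. Of 25 listed members, 24 reached 1 CPM and 13 reached 100 CPM, and their median was 6.67 on the log2 scale. After Clu came Ctsl, a lysosomal protease that Sertoli cells secrete, with 850.2, 857 and 1007 CPM. Kitl, the ligand of the Kit receptor above, had 444, 409 and 424 CPM. The hormone genes Inha and Amh stood at 259, 262 and 265 and 101, 94.5 and 70.6 CPM; AMH is the hormone that removes the female duct in the embryo and is still made before puberty. Fshr, the receptor for follicle-stimulating hormone, had 62.5, 49.8 and 54.2 CPM. The sex-determining factor gene Sox9 had 43.7, 48.3 and 44.1 CPM, and Wt1, needed for the cells' identity, had 137, 132 and 109 CPM. Gdnf, the stem cell factor that signals through Gfra1, was low at 12.8, 10.4 and 12.8 CPM. Trf, the transferrin gene, which rises in later Sertoli cells, was under 1 CPM on average at 1.17, 0.615 and 0.656 CPM. None of the 24 members at 1 CPM or more differed by 2 times between the highest and the lowest library, against 4.48% of all genes at that level.

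Leydig cell genes were high but uneven between libraries. Of 16 members, 15 reached 1 CPM, with a median of 5.58 on the log2 scale. Hsd3b1, which makes the precursors of testosterone, had 289, 303 and 376 CPM and Hsd17b3, which catalyses the last step to testosterone, had 204, 143 and 157 CPM. Star, which carries cholesterol into mitochondria, had 42.3, 135 and 39.4 CPM. Cyp17a1, the enzyme that turns progestins into androgens, had 58.8, 145 and 42.2 CPM. Replicate 2 was the high library for both. Cyp11a1, the enzyme that cleaves cholesterol, was lowest in replicate 1 at 61.3, 122 and 113 CPM. The receptor for luteinizing hormone, Lhcgr, showed no such step at 12.4, 14.9 and 16.3 CPM, nor did the Leydig hormone gene Insl3 at 7.85, 9.54 and 11.6 CPM. A range of at least 2 times was seen for 3 of the 15 members at 1 CPM or more, against 4.48% of all genes at that level. The third of these, after Star and Cyp17a1, was the adult isoform gene Hsd3b6. The summed CPM of the list was 1042, 1233 and 1071.

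Contractile and stromal genes gave the highest medians of the 23 cell type lists. All 13 peritubular genes reached 1 CPM, with a median of 6.78 on the log2 scale, led by smooth muscle actin Acta2 at 781, 851 and 765 CPM and smooth muscle myosin Myh11 at 427, 508 and 395 CPM. Replicate 2 was the highest library for 10 of the 13. All 16 stromal genes reached 10 CPM, with a median of 6.92. The collagen genes Col1a2 and Col1a1 had 1033, 982 and 1057 and 562, 562 and 585 CPM, the proteoglycan gene Dcn had 601, 490.2 and 601 CPM, and Pdgfra, a receptor of stromal and Leydig progenitors, had 491, 394 and 471 CPM. Replicate 2 was the lowest library for 13 of these 16 genes, although the sums differed little, at 5821, 5191 and 5789 CPM.

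Vessel and white blood cell genes were lower. All 15 endothelial genes reached 1 CPM with a median of 3.79 on the log2 scale, and the vascular growth factor receptor gene Kdr was the highest at 72.7, 47.7 and 58.9 CPM. All 6 pericyte genes reached 1 CPM, led by Rgs5 at 85.9, 88.5 and 85.2 CPM. All 15 macrophage genes reached 1 CPM, with Lyz2, the lysozyme gene, at 105, 56.4 and 87.1 CPM and the growth factor receptor gene Csf1r at 44, 29.8 and 30.3 CPM. Replicate 1 was the highest library for 13 of the 15 macrophage genes and replicate 2 the lowest for 11, and the sums were 393, 262 and 306 CPM. Lymphocyte genes hardly appeared: 2 of 12 listed members reached 1 CPM, and the T cell gene Cd8a had 0.168, 0.205 and 0.364 CPM. Mast cell genes were low but regular, with replicate 3 the highest for all 5 that reached 1 CPM, among them the protease gene Cpa3 at 4.03, 4.07 and 6.88 CPM. Globin genes of red cells had 420.3, 498 and 528 CPM for Hba-a2 and 376, 427 and 437 CPM for Hbb-b1; near-identical copies make the split between these genes uncertain.

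Genes known from glia, liver, ovary, mesothelium and fat were also measured, and which cells their reads came from was not tested. Of 9 listed genes of glia and neurons, 6 reached 1 CPM and 3 reached 10 CPM, with a median of 2.34 on the log2 scale. Among them S100b, a calcium-binding protein gene of glia, had 17.9, 18.7 and 21.5 CPM, while Th had 0.252, 0.171 and 0.182 CPM. Of 5 listed liver genes, 1 reached 1 CPM, the alpha-fetoprotein gene Afp, at 16.4, 14.7 and 16.1 CPM, while Alb had 0.546, 0.171 and 0.838 CPM. Ovarian granulosa cell genes split: Fst, which encodes an activin binding protein, had 12.7, 14.3 and 6.96 CPM, but the defining factor gene Foxl2 had 0.504, 0.171 and 0.146 CPM and aromatase, Cyp19a1, had 0.0839, 0.137 and 0.146 CPM. Mesothelial genes of the testis capsule reached 1 CPM in 6 of 7 cases, with Upk3b at 18.2, 19.2 and 13.2 CPM. Replicate 3 was the lowest library for all 6, and the sums of that list were 58.8, 68.3 and 42.3 CPM. Fat cell genes differed more between libraries, with a highest sum 5.15 times the lowest. Fabp4, the fatty acid carrier of fat cells, had 52.4, 6.97 and 32.4 CPM, and Adipoq, the hormone adiponectin, had 14, 2.7 and 6.05 CPM. The sums of the fat cell list were 103, 20.0 and 53.6 CPM, lowest in replicate 2.

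Genes of cell division were high throughout. All 18 mitotic genes were at 10 CPM or more, with a median of 7.18 on the log2 scale. None differed by 2 times between libraries, against 0.617% of all genes at 10 CPM or more. Top2a, the topoisomerase of dividing cells, had 521, 563 and 555 CPM and Mki67, the proliferation antigen, had 500.4, 469 and 522 CPM. All 13 imprinted growth genes were at 10 CPM or more with the highest median of all lists, 7.49. H19, the noncoding RNA of the fetal growth locus, had 429.7, 407 and 443 CPM, and its partner Igf2 had 205, 173 and 163 CPM.

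The retinoic acid pathway was led by 1 enzyme. Aldh1a1, which makes retinoic acid, had 944, 924 and 1002 CPM, while its relative Aldh1a2, the enzyme of germ cells, had 52.9, 62.4 and 45.7 CPM. Cyp26b1, which degrades retinoic acid in peritubular cells, had 94.5, 104 and 103 CPM. The receptor genes were moderate, with 39.4, 32.9 and 27.8 CPM for Rara and 14, 18.3 and 14.1 CPM for Rarg, a receptor of spermatogonia. The remaining degrading enzymes were near the bottom, with 1.17, 2.15 and 1.38 CPM for Cyp26a1 and 0.21, 0.513 and 0.182 CPM for Cyp26c1. In all, 17 of the 19 genes reached 1 CPM, with a median of 4.65 on the log2 scale.

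Genes that respond to stress or handling were measured as signs of the state of the tissue. Of 18 immediate early genes, 17 reached 1 CPM, with a median of 3.59. Fos, the classic early response gene, was low at 5.08, 3.76 and 1.2 CPM, and its relative Fosb had 0, 84 and 10 reads. Replicate 3 was the lowest library for 13 of the 17. The inducible chaperone genes Hspa1a and Hspa1b, near-identical copies, had 25, 29.3 and 16.4 and 31.4, 35.8 and 20.4 CPM, far below the constitutive Hspa8. Interferon response genes were mostly low, with a median of 1.12 on the log2 scale. Of 11 listed members, 8 reached 1 CPM and 3 reached 10 CPM. The highest had a mean of 98.7 CPM, while Isg15 had 0.797, 0.752 and 0.692 CPM. Among genes of glycolysis, all 11 were at 10 CPM or more, with Aldoa at 421, 433 and 464 CPM.

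The libraries were closer to each other at high levels than at low ones. Across 16729 genes at 1 CPM or more, the Pearson correlation of log2 CPM was 0.986 between replicates 1 and 2, 0.975 between 1 and 3 and 0.978 between 2 and 3, as a description across genes that share each library. The median SD of log2 CPM over the 3 libraries was 0.134, and it was 0.108 among 11663 genes at 10 CPM or more. The spread was smaller at higher levels. The coefficient of variation left after the counting variance was subtracted was estimated from medians over genes. It was 23.1% at 1 to 2 CPM, 10.0% at 10 to 50 CPM and 7.0% at 200 CPM or more. The counting part had a median of 16.4% at 1 to 2 CPM and 1.12% at 200 CPM or more. A range of at least 2 times between the highest and the lowest library was found for 750 genes, or 4.48% of those at 1 CPM or more. Among genes at 10 CPM or more it was found for 72, or 0.617%. With 2 libraries only, the count of 750 was 320 without replicate 1, 483 without replicate 2 and 333 without replicate 3.

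Among genes at 10 CPM or more, Cnih, which helps cargo leave the endoplasmic reticulum, had the smallest SD of log2 CPM, 0.000542, with 81.2, 81.2 and 81.3 CPM. Ddx42, an RNA helicase of splicing, had 207, 207 and 207 CPM, and the splicing factor gene Prpf19 had 260.5, 260.3 and 261 CPM. Psmb10, a proteasome subunit, had 24, 24 and 24.1 CPM. Ptma combined a high level with an SD of 0.00153. These genes were picked as the lowest of 11663, and 3 libraries give a loose estimate of an SD.

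**Figure D4:**
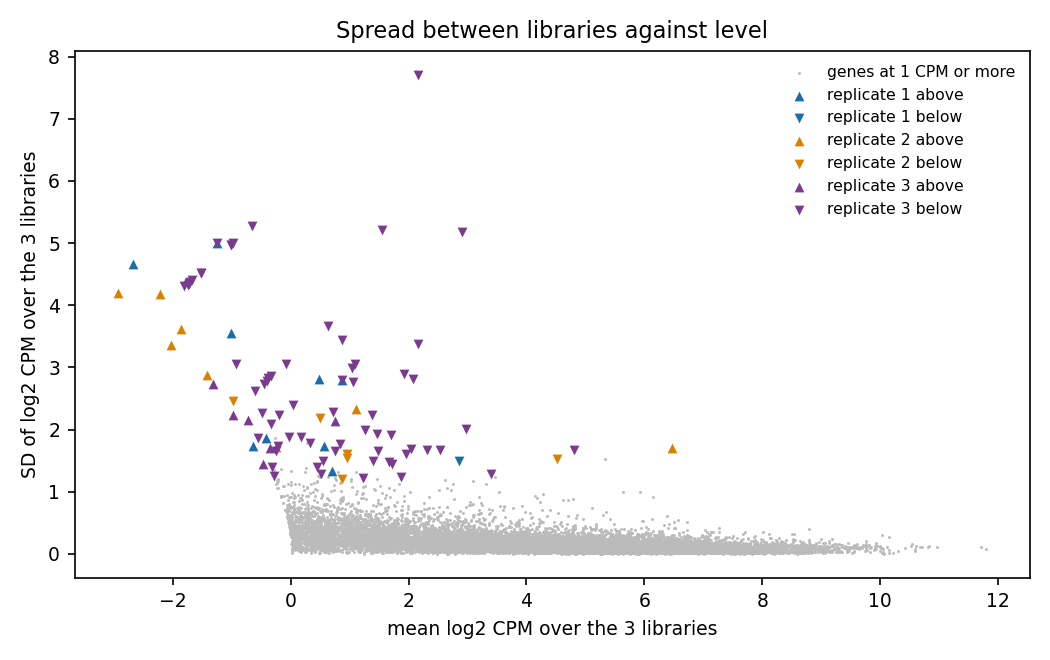
The horizontal axis gives the mean log2 CPM and the vertical axis the SD of log2 CPM over the 3 libraries for genes at 1 CPM or more; coloured triangles mark genes in which 1 library lay at least 4 times above or below both others. Most triangles are genes with replicate 3 below (67 genes), and Crisp1 has the largest SD, 7.71.

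Genes in which 1 library stood far from the others were mostly low in replicate 3. A library lay at least 4 times above or below both others for 95 genes, or 0.568% of those at 1 CPM or more, with levels under 3 reads set to 3 reads. Replicate 3 was the low library for 67 of them, while no other library and direction came to more than 9. Crisp1 (ENSMUSG00000025431, chromosome 17, 40430707 to 40456156, minus strand, mm9), a sperm-coating protein made by the epididymis, had 2432, 2751 and 0 reads, or 102, 94 and 0 CPM. Replicates 1 and 2 were alike and replicate 3 was at least 861-fold lower than the lower of them, counting 3 reads for its 0. Spink8, a protease inhibitor gene of the epididymis, had 1292, 1905 and 3 reads, or 54.2, 65.1 and 0.109 CPM. Serpina1f, a further inhibitor gene, had 440, 871 and 1 reads, or 18.5, 29.8 and 0.0364 CPM. All 3 genes had at most 3 reads in replicate 3 and at least 440 in each of the others. Cldn8, a tight junction gene, had 19, 15.6 and 0.291 CPM, and Cd52, a surface peptide passed to sperm, had 17, 18 and 1.57 CPM.

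An epididymal list and a duct epithelium list hold 15 and 10 of the 67 genes. Both were drawn up after these values were seen, and they are descriptions only. Most of the 67 genes are on neither. Of 19 genes for secreted or surface products of the epididymis, replicate 3 was at least 4 times below both others for 15, and their summed CPM was 265, 283 and 15.1. The beta-defensin genes Defb2 and Defb40 had no read in replicate 3 and 3.02, 4.34 and 0 and 2.77, 5.02 and 0 CPM over the 3 libraries. Defb42 was an exception at 14.1, 14.3 and 9 CPM. Of 20 genes of duct epithelium, replicate 3 was below in this way for 10, and the sums were 362, 252 and 130 CPM. Cdh16, a cadherin of kidney and duct epithelium, had 69.6, 41.3 and 7.61 CPM, Krt18, a simple epithelial keratin gene, had 33.8, 17.8 and 9.8 CPM and Epcam, an epithelial adhesion gene that spermatogonia also use, had 83.4, 69.2 and 41 CPM. The 67 genes also hold others, of which 2 chosen after their values were seen are Npy, the neuropeptide Y gene, at 7.89, 5.06 and 0.437 CPM, and Acta1, the actin gene of skeletal muscle, at 5.12, 6.87 and 0.583 CPM. Position genes of the reproductive tract went with the duct genes in part: Hoxa10 had 7.01, 7.01 and 0.692 CPM and Hoxa11 had 1.34, 2.46 and 0 CPM, whereas Hoxd9 had 27.4, 20.1 and 25.7 CPM and Hoxd10 had 14.1, 9.81 and 12.5 CPM, with no step at replicate 3. Pax2, a factor of the duct lineage, had 2.06, 1.5 and 0.0364 CPM. In the list of epididymis and rete markers, 4 of 11 members were not listed, among them Lcn5 and Lcn9 of the mature epididymis, and Crisp1 led the 4 that reached 1 CPM. Replicate 3 was at least 4 times below both others for only 2 of the 7 listed members. Of the 4 at 1 CPM or more, replicate 3 was the lowest library for 2 and replicate 2 for 2. The sums of this list, 137, 111 and 17.2 CPM, rest largely on Crisp1. The labels name testis only, and the part of tissue beside the testis in these values was not tested. The sums of the Sertoli list were 5452, 5434 and 5869 CPM and those of the germ cell list 1963, 2277 and 2043 CPM.

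**Figure D5:**
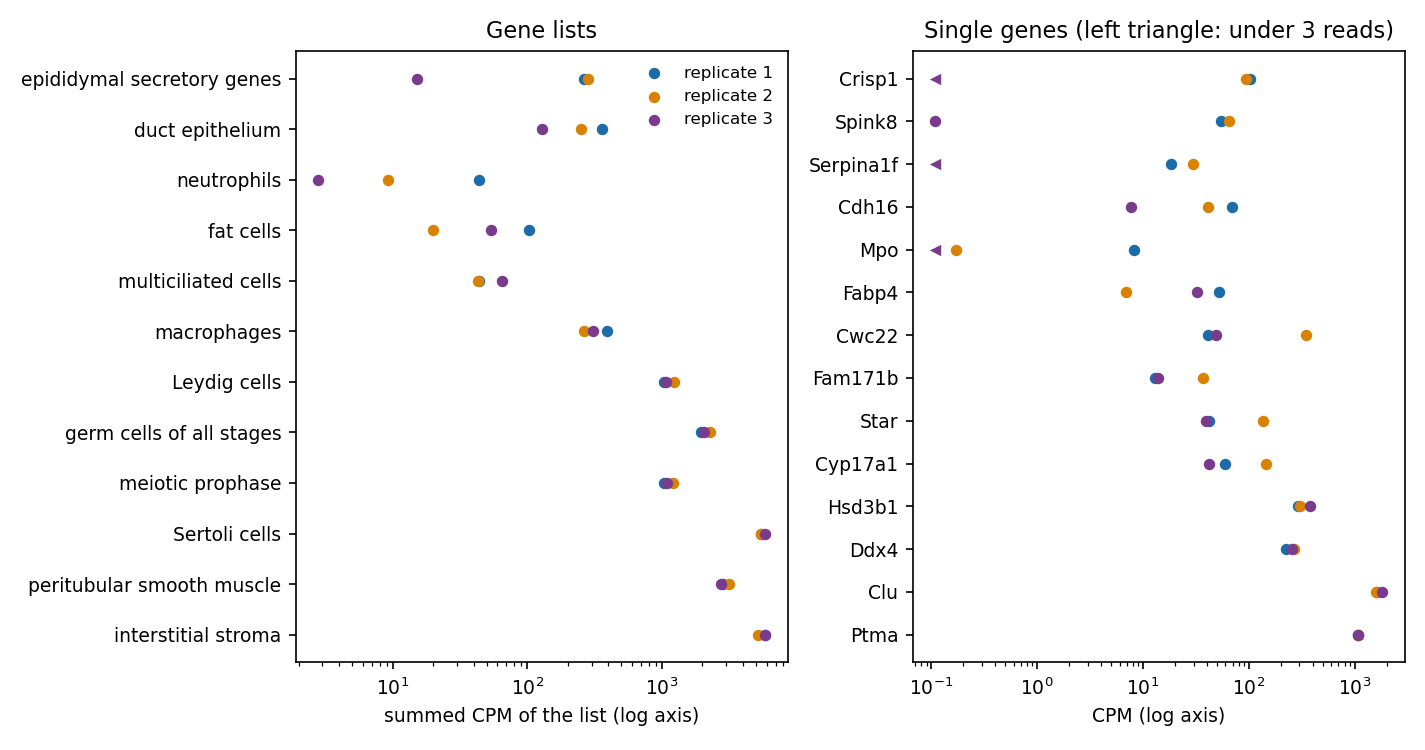
Both horizontal axes are log axes, of the summed CPM of a gene list on the left and of the CPM of single genes on the right, with 1 coloured point per library and a left-pointing triangle at the level of 3 reads for a library with fewer. Replicate 3 is far to the left for epididymal secretory genes (15.1 against 265 and 283 CPM). Replicate 2 is far to the right for Cwc22 (347 against 41.3 and 48.8 CPM), and the points of the Sertoli and germ cell lists lie close together.

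Replicate 1 stood out for genes of neutrophils and for part of the genes of fat. Of the 7 fat cell genes at 1 CPM or more, replicate 1 was the highest library for 6 and replicate 2 the lowest for all 7. Replicate 1 was at least 4 times above both others for 9 genes. Mpo, the peroxidase of neutrophil granules, had 194, 5 and 2 reads, and Ctsg, a protease of the same granules, had 127, 2 and 0. The alarmin gene S100a8 had 197, 28 and 0 reads. A list of 9 neutrophil genes, drawn up after these values were seen, holds 4 of the 9 genes with replicate 1 above. It also holds 3 of the 67 genes with replicate 3 below, S100a8 among them. For all 6 of its members at 1 CPM or more, replicate 1 was the highest library and replicate 3 the lowest. The list is a description only, and its sum was 43.6, 9.23 and 2.80 CPM. Cfd, a complement protease gene typical of fat, had 12.3, 0.273 and 0.765 CPM, and Pck1, an enzyme of fat and liver, had 5.71, 0.547 and 1.02 CPM. These levels are low, and the sum of the neutrophil list was under 50 CPM in each library. In replicate 3, 6 genes lay at least 4 times above both others, among them Capn11, Cldn2 and Pdzk1. The remaining 3, Lrrc23, Dynlrb2 and Ccdc67, are on a list of 12 genes of cells with many cilia. That list was drawn up after these values were seen, and its sum was 43.7, 43.3 and 64.8 CPM. Lrrc23, Dynlrb2 and Ccdc67 had 0.294, 0.205 and 3.35 CPM, 0.587, 0.273 and 2.88 CPM and 0.252, 0.0684 and 3.21 CPM. Foxj1, the main factor of such cells, had 2.52, 1.26 and 1.82 CPM, with no step at replicate 3.

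Replicate 2 was at least 4 times above both others for 8 genes and below both for 6. Of the 8, 5 lie on chromosome 2, in 3 separate stretches, and Gm13694, Gm13696 and Gm13697 among them belong to 1 row of pseudogenes. Chromosome 2 holds 1416 of the 16729 genes at 1 CPM or more. Cwc22 (ENSMUSG00000027014, chromosome 2, 77719216 to 77784432, minus strand, mm9), a splicing factor gene, had 984, 10146 and 1341 reads, or 41.3, 347 and 48.8 CPM, which put replicate 2 at 7.1 times the next library. A row of pseudogenes further along the same chromosome, from 83.8 Mb, was also highest in replicate 2. Gm13694 (chromosome 2, 83819087 to 83821814, mm9) had 2, 141 and 1 reads and Gm13691 (chromosome 2, 83830707 to 83833434, mm9) had 2, 61 and 1. The neighbouring coding gene Fam171b (chromosome 2, 83652793 to 83723643, mm9) had 311, 1070 and 378 reads. The next genes on that side, Itgav and Zc3h15, had 81.7, 72.3 and 69.9 and 164, 181 and 175 CPM and showed no step. The 7 pseudogenes of the row all had their highest value in replicate 2. Gm14008, a pseudogene elsewhere on chromosome 2, had 0.629, 3.08 and 0.291 CPM. Away from chromosome 2, and likewise chosen after their values were seen, the pseudogene Gm7125 on chromosome 15 had 1.05, 13.7 and 0.692 CPM, Gm9218 on the X chromosome had 0, 86 and 2 reads and Fosb is given above. Among the 6 genes with replicate 2 below were Fabp4 and Cyp2e1, a cytochrome gene known from liver and fat, at 3.9, 0.239 and 2.91 CPM. Star and Cyp17a1, described above, were also highest in replicate 2 but lie on other chromosomes.

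Chromosomes were used alike with small differences. The share of listed genes at 1 CPM or more ran from 70.0% on chromosome 14 to 80.6% on chromosome 19 among autosomes and was 68.9% on the X chromosome, 857 of 1244 genes. The X chromosome holds many pseudogenes, 333 of its listed genes, and among its coding genes the share was 82.9%, inside the autosomal range of 77.4% to 86.5%. X-linked genes took 5.21% ± 0.0681 of the reads (SD, n = 3). After Maged1, the highest named X-linked coding genes were the deubiquitinase gene Usp9x with 1009, 899 and 1074 CPM and Ogt, a glycosyltransferase gene, with 750.4, 680.4 and 762 CPM. Scml2, a germ cell repressor, had 479.8, 528 and 477 CPM. All 13 listed Y-linked genes reached 1 CPM. The spermatogonial gene Ube1y1 had 264, 319 and 284 CPM, and the germ cell RNA-binding gene Rbmy1a1, which has many near-identical copies, had 222, 238 and 232 CPM. Zfy1 and Zfy2, zinc finger genes that act in meiosis, were the lowest at 3.99, 6.12 and 6.05 and 2.73, 4.03 and 3.42 CPM.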

How the data were processed

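RNA libraries were made from total testis RNA with a TruSeq kit, per the labels' protocols. The submitters' processing notes name STAR 2.3.0e, Bowtie2, Picard, edgeR and the build mm9, with no role for each. How reads were counted, by which annotation, with or without strand, and what became of reads with several matches is not given in the sources used here. The authors deposited log2 CPM values scaled to library size, with a small prior added before the log. Coordinates of genes are those of the table, in mm9.

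Whole reads were recovered from the steps between low values. Of values below 1000 reads, 100% came out whole at a tolerance of 0.01 of a read. CPM without the prior was then used for levels, and the deposited log2 values for medians and SDs. The recovery and the counts were tested on simulated data. Python 3.11.15 with pandas 2.3.3, numpy 2.4.6 and scipy 1.17.1 was used, and no test was run, since the 3 libraries hold 1 condition.

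A gene was called expressed at a mean of at least 1 CPM. The table holds only genes with some reads, so the planned class of genes at 0 reads in all 3 libraries was almost empty, and absent families were counted against RefSeq symbols. Genes were named by rule: the most abundant, the highest and lowest members of each list with those that define a cell type, and the genes of largest and smallest spread; names made of Gm and digits or ending in Rik were passed over unless among the most abundant. The genes of the chromosome 2 row, Olfr1033, Defb19 and other family leaders, and the genes in which 1 library stood apart, were chosen after their values were seen. The members and lists were chosen with earlier results of these data known. Promoter windows are from RefSeq, GRCm38.p6. Alternative thresholds, scalings and pseudocounts and the omission of each library were tried. The 2 chromatin samples were left out, and the libraries of the animals lacking Dmrt6 entered only checks of the whole table.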

Additional observations from a re-analysis of the deposited data

How the results depend on the processing

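The number of genes at 1 CPM or more, the marker genes among them, the median SD and the median promoter difference stayed within the range set for no change under every alternative run for them, and neither library scaling moved a list's median level. Other values depended on the choice. At a mean of at least 0.5 CPM the share of X-linked genes expressed was 76.2%, against 68.9%. Counting genes with at most 3 reads over the 3 libraries as silent gave 139 genes in place of 17, and 12 in place of 2 within the families searched. Leaving out each replicate in turn gave 71 to 94 such genes in all and 4 to 7 in the families. The 750 genes with a range of at least 2 times became 72 among genes at 10 CPM or more, 4670 among all genes with a read, and 320 to 483 with a range over 2 libraries in place of 3. With log2(CPM + 1), chosen after seeing the data, replicate 3 lay at least 4 times below both others for 18 genes in place of 67. Without RefSeq pseudogenes, also chosen after seeing the data, the top 100 genes held 10.1% of the reads, against 9.74%. With log2(CPM + 1) 8 of 30 list medians moved by more than their spread, mostly of lists near 0. Ranking per length of coding sequence was not run, as lengths were not used here, and leaving out mitochondrial genes did not apply. No paired analysis was possible because only 1 genotype was described and no test was made. Depth limits what can be said of genes under 1 CPM: at 1 to 2 CPM the counting error alone was 16.4%.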
